A study of Mus musculus with 12 samples.

Results

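In sorted cells of mouse embryos 9 genes of the retinoic acid pathway were measured, covering retinol uptake, synthesis and its restraint, breakdown, binding and receptors. They were Dhrs3, Aldh1a2, Cyp26a1, Stra6, Crabp1, Crabp2, Rara, Rarb and Rarg, taken by name for their roles in the pathway. Earlier results of these data were known when they were chosen. All 9 genes, of 18193 genes with a probe set of their own, were found, with 10 of the 45037 probe sets measured, 2 for Rarg and 1 for each other gene. A probe set is a group of short probes on the array that together report 1 transcript or a group of transcripts.

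The study sorted cells of E8.0 embryos of a C57BL/6 and FVB mixed line by EYFP, a yellow fluorescent protein, and measured RNA on 12 arrays. The 4 groups of 3 arrays were EYFP-positive cells of embryos mutant for ER71, EYFP-negative cells of mutant embryos, EYFP-positive cells of wild-type embryos and EYFP-negative cells of wild-type embryos, called mutant or wild-type positive and negative cells here. All 4 groups came from the line that carries ER71 EYFP, were released with trypsin, and had their RNA amplified in 2 rounds. ER71, now named Etv2, encodes a transcription factor needed for blood and endothelium. The labels give neither the sequences that drive EYFP, nor the mutant allele, nor whether the 3 arrays of a group came from separate embryos or pools, so that p-values measure the spread between these arrays, which may be technical in part.

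Retinoic acid is made from vitamin A in 2 oxidation steps and acts on receptors that sit on DNA as partners of the RXR proteins. In the early embryo Aldh1a2, made in somites and other trunk mesoderm, produces most of it, while Cyp26 enzymes destroy it in neighbouring tissue. Its best known roles at this stage are the patterning of the hindbrain and trunk, the somites, and the back of the heart field.

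Receptors of retinoic acid bind repeated half-sites, and a classical element, called DR5, has 2 half-sites in the same orientation with 5 bases between them. The element was searched on both strands with the half-site AGGTCA, or its variants with other letters at the first and the third base (AGTTCA as well as GGGTCA, and lastly GGTTCA), in windows from 250 bases before to 50 bases after transcript starts (RefSeq, GRCm38.p6). Of 32851 windows 0.0974% held it, 32 in all. Windows existed for 8 of the 9 genes, and the element lay in those of Rarb and Cyp26a1, 2 of 17 windows. Both genes are known to be induced by retinoic acid, and their 250 bases before the start are shown because they were the only windows of the 9 genes with the element. The capitals mark the element, which in Cyp26a1 lies on the opposite strand. The Rarb stretch is chr14:16575477-16575726 on the minus strand, with the element 53 to 37 bases before the start. The Cyp26a1 stretch is chr19:37697558-37697807 on the plus strand, with the element 32 to 16 bases before the start. Both are written 5′ to 3′ on the strand of the gene. A match describes the letters of a window and shows no binding.
Rarb: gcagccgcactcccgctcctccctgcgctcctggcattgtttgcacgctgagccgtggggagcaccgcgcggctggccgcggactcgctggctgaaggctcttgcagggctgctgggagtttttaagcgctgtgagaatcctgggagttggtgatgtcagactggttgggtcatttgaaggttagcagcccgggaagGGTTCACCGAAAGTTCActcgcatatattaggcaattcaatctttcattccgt
Cyp26a1: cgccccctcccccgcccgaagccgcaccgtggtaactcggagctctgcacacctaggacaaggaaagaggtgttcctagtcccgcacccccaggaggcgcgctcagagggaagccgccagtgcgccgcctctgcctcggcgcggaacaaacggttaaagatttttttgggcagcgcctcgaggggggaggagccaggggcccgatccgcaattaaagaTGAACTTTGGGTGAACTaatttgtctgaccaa

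Values are the authors' log2 RMA values, so a step of 1 is a doubling, and array medians lay between 6.98 and 7.06. Etv2 had 10.72, 10.70 and 11.36 on the wild-type positive arrays and 7.24 to 7.85 on the other 9, the mutant positive arrays among them. Both wild-type arrays numbered 1 stood apart by the Y-linked gene Eif2s3y, at 10.8 in positive and 11.2 in negative cells, against at most 4.53 on the other 10. Xist was lower on both, at 10.33 in positive and 8.19 in negative cells, against 13.36 to 13.98 on the other 10. By these genes both held male cells and no mutant array did. The part of sex in the differences was not tested, apart from alternatives without both arrays. Mutant positive array 1 had the yolk sac endoderm gene Afp at 11.98, against 5.02 and 4.03 on mutant positive arrays 2 and 3. The embryonic globin gene Hbb-y was uneven in negative cells, at 5.01, 11.55 and 4.71 on mutant arrays and 10.80, 5.59 and 11.94 on wild-type arrays. Differences were tested with limma over all probe sets at an adjusted p under 0.05, with standard errors (SE). The main fit did not pair arrays. The number of arrays limits every value.

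Within wild types, EYFP-positive and EYFP-negative cells show which of these genes differ in the fraction that carries the reporter. The synthesis enzyme Aldh1a2 and both cellular binding proteins, Crabp1 and Crabp2, fell in positive cells by 1.87 to 2.70 on the log2 scale. No probe set of the 9 genes rose. Of the 10 probe sets 3 fell, where 1.72% of all probe sets fell and 2.76% rose. The groups did not overlap for 4 of 10, against 21.2% of all probe sets. The median difference was -0.16 log2 over the 10 and -0.01 over all probe sets.

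Mutant set against wild-type positive cells compares what was sorted as EYFP-positive in each genotype, which need not hold the same cell types. No probe set of the 9 genes passed with limma, where 2.08% of all probe sets rose and 2.34% fell. At an unadjusted p under 0.05 there were 5 of 10, against 17.7% of all probe sets, namely Aldh1a2, Crabp1 and Crabp2 with higher values in mutant positive cells, and Cyp26a1 and Dhrs3 with lower ones. The groups did not overlap for 5 of 10, against 21.8% of all probe sets. This comparison shares the wild-type positive arrays with the one before, so the opposite signs of Aldh1a2, Crabp1 and Crabp2 in the 2 comparisons are not independent.

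Within mutant embryos, Crabp2 and the degrading enzyme Cyp26a1 fell in positive cells. These were 2 of 10 probe sets, where 1.07% of all probe sets fell and 1.55% rose. The groups did not overlap for 5 of 10, against 16.1% of all probe sets. Between mutant and wild-type negative cells limma called 0 of the 10 probe sets and 0 of all 45037 (0%), and 0 of 10 and 2119 of all (4.71%) had an unadjusted p under 0.05. Arrays of the 2 groups did not overlap for 1 of 10, against 10.9% of all probe sets. The largest of these 10 differences was 0.28 log2, for Crabp2. The interaction (the sort difference of the mutants less the sort difference of the wild types) passed for 0 of 10 with limma, where 1.27% of all probe sets passed. At an unadjusted p under 0.05 there were 3 of 10, against 9.65% of all probe sets. No gene of the 9 was shown to differ between the genotypes in how it followed the sort.

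**Figure D1:**
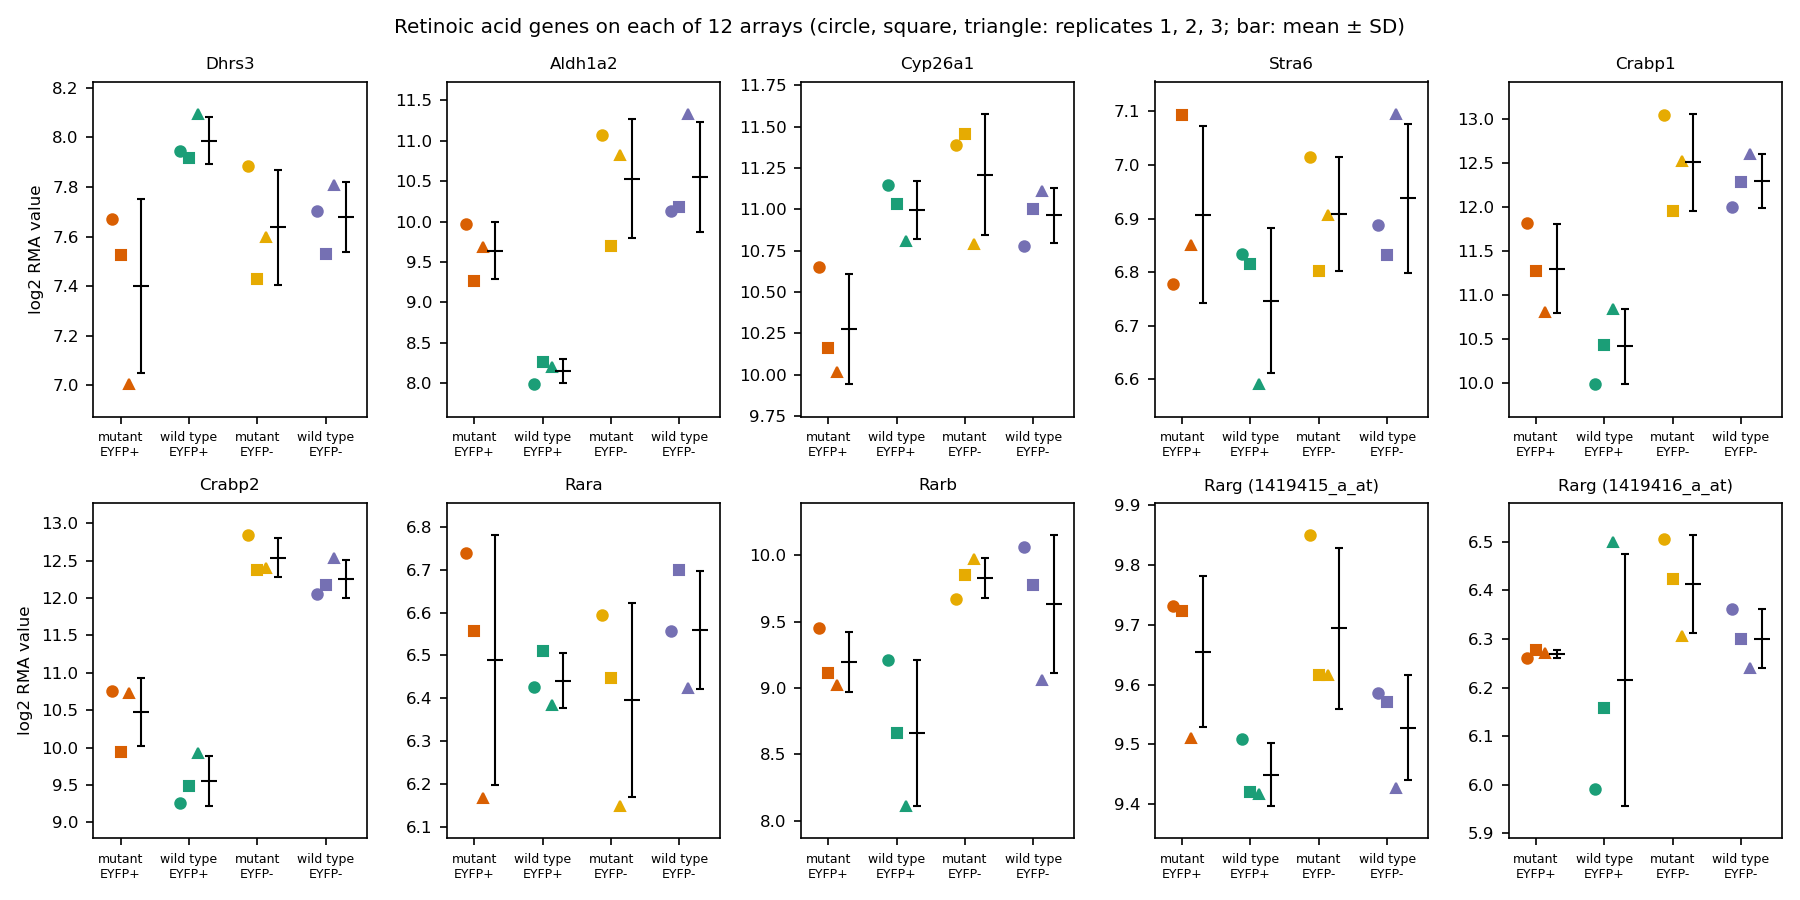
Log2 RMA values (vertical axes, a separate range in each panel) of the 10 probe sets in the 4 groups (horizontal axes). Symbols are single arrays and bars are mean ± SD; Aldh1a2 and Crabp2 are lowest on the 3 wild-type positive arrays, and Cyp26a1 has its lowest values on the mutant positive arrays.

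Among the enzymes, Aldh1a2 encodes the retinaldehyde dehydrogenase that makes retinoic acid. It had 9.97, 9.26 and 9.69 on the mutant positive arrays, against 7.98, 8.26 and 8.20 on the wild-type positive arrays. In negative cells it had 11.07, 9.69 and 10.82 on mutant arrays, against 10.13, 10.18 and 11.33 on wild-type arrays. The 3 wild-type positive arrays lay below all other 9, and the mutant positive arrays overlapped the mutant negative ones only through array 2 of the negative cells, the mutant negative array with high Hbb-y; the part of red cells in that value was not tested.

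In the wild-type sort Aldh1a2 was 5.27-fold lower on the positive side, a log2 difference of -2.40 ± 0.38 (SE; limma, adjusted p = 0.00422). It stood past the threshold under all 23 alternatives tried for this comparison, at adjusted p from 0.000805 to 0.0358. In mutants the positive-negative difference was -0.89 ± 0.38 and did not pass (adjusted p = 0.395). Between mutant and wild-type positive cells the difference was 1.49 ± 0.38, a 2.81-fold ratio (95% interval 0.65 to 2.34 log2), and it missed the threshold at adjusted p = 0.0551. It passed under 8 of 22 alternatives, such as 1 probe set per gene (0.033), same-numbered positive and negative arrays of a genotype as a random block (0.0463), and without mutant negative array 1 (0.049) or 2 (0.0213) or wild-type negative array 3 (0.0307). The interaction for Aldh1a2 was 1.51 ± 0.54 (adjusted p = 0.335). By mean level the order was wild-type negative (10.55 ± 0.68, SD, n = 3), mutant negative (10.53 ± 0.74), mutant positive (9.64 ± 0.36) and wild-type positive (8.15 ± 0.15), and of the neighbours in this order none differed past the threshold.

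Dhrs3 encodes a reductase that returns retinaldehyde to retinol and so holds back synthesis. It had 7.67, 7.52 and 7.004 on the mutant positive arrays, against 7.95, 7.92 and 8.09 on the wild-type positive arrays. In negative cells it had 7.43 to 7.89 on mutant and 7.53 to 7.81 on wild-type arrays. The wild-type positive arrays were the 3 highest of all 12, yet by small margins. The difference of mutant from wild-type positive cells was -0.59 ± 0.17 (adjusted p = 0.0937), and that of wild-type positive from wild-type negative cells was 0.31 ± 0.17 (adjusted p = 0.487). Neither passed, nor did either under the alternatives.

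Cyp26a1, a cytochrome P450 that breaks down retinoic acid, carried the DR5 element shown above. It had 10.65, 10.16 and 10.01 in mutant positive cells, against 11.39, 11.45 and 10.79 in mutant negative cells. In wild types it had 11.15, 11.03 and 10.81 in positive cells, against 10.78, 11.001 and 11.11 in negative cells. All 3 mutant positive arrays lay below the other 9, whereas the other 3 groups overlapped.

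Cyp26a1 fell by 0.94 ± 0.21 log2 in mutant positive relative to mutant negative cells, to 0.523 of the level (limma, adjusted p = 0.039). This call was lost under 10 of 23 alternatives. Among them were the omission of array 2 (0.14) or 3 (0.132) of the mutant positive cells, array 1 (0.118) or 2 (0.145) of the mutant negative cells, wild-type positive array 2 (0.0553), or wild-type negative array 1 (0.0539), 2 (0.0657) or 3 (0.0574). In wild types the difference was 0.03 (95% interval -0.42 to 0.49, adjusted p = 0.974). Against wild-type positive cells, mutant positive cells differed by -0.72 ± 0.21 (adjusted p = 0.0821). That difference passed without mutant positive array 1 (0.0431), the array with high Afp, or without mutant negative array 3 (0.0437). The interaction was -0.97 ± 0.29 (adjusted p = 0.209), so the sort difference of Cyp26a1 was not shown to depend on genotype.

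Stra6 encodes the membrane receptor through which cells take up retinol from its carrier in the blood. Its probe set lay near the middle of each array, between the 42.5th and the 51.3rd percentile, and its 12 values spanned only 6.59 to 7.10. The largest of its 4 pairwise group differences was -0.19 ± 0.12, in wild-type positive against wild-type negative cells (adjusted p = 0.541). Its interval there was -0.46 to 0.07 log2. Signal over background was not given, so low expression of Stra6 and a weak probe set cannot be told apart.

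Of the 10 probe sets, that of the cellular binding protein Crabp2 had the largest difference in both sorts. Crabp2, which hands retinoic acid to its receptors in the nucleus, had 10.75, 9.94 and 10.72 in mutant positive cells, against 12.84, 12.38 and 12.40 in mutant negative cells. In wild types it had 9.26, 9.49 and 9.92 in positive cells, against 12.05, 12.17 and 12.54 in negative cells. All 6 positive arrays lay at least 1 log2 step below all 6 negative arrays, and the mutant positive arrays lay above the wild-type positive ones, the closest at 9.94 against 9.92.

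Crabp2 fell by 2.07 ± 0.25 log2 in mutant positive cells (4.19-fold; limma, adjusted p = 0.00162) and fell by 2.70 ± 0.25 in wild-type positive cells (6.48-fold; adjusted p = 7.83e-05), each relative to the negative cells of the genotype. Both calls held under all alternatives. The interaction was 0.63 ± 0.35 (95% interval -0.14 to 1.40, adjusted p = 0.641). Mutant positive cells differed from wild-type positive cells by 0.92 ± 0.25 (adjusted p = 0.0668), which passed with 1 probe set per gene (0.0411) and without mutant positive array 2 (0.0199).

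Crabp1, the second binding protein, is known for a part in clearing retinoic acid and is strongly made in hindbrain and neural crest. Its values were 11.82, 11.27 and 10.81 in mutant positive cells, against 13.05, 11.95 and 12.53 in mutant negative cells. In wild types they were 9.99, 10.44 and 10.84 in positive cells, against 12.00, 12.28 and 12.61 in negative cells. Positive and negative arrays did not overlap in either genotype, though in mutants the gap was only from 11.82 to 11.95.

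Crabp1 fell by 1.87 ± 0.33 log2 in wild-type positive cells (3.67-fold; adjusted p = 0.00697). That call was lost when both wild-type arrays numbered 1 were left out (adjusted p = 0.0567), with nearly the same difference (-1.81). In mutants the difference was -1.21 ± 0.33 and missed the threshold (adjusted p = 0.0961). With same-numbered positive and negative arrays as a block it passed, at adjusted p = 0.012 with a fixed and 0.0253 with a random block. The 3 mutant pairs differed by -1.23, -0.68 and -1.71, and the 3 wild-type pairs by -2.01, -1.85 and -1.77. Mutant positive cells differed from wild-type positive cells by 0.88 ± 0.33 (adjusted p = 0.183).

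**Figure D2:**
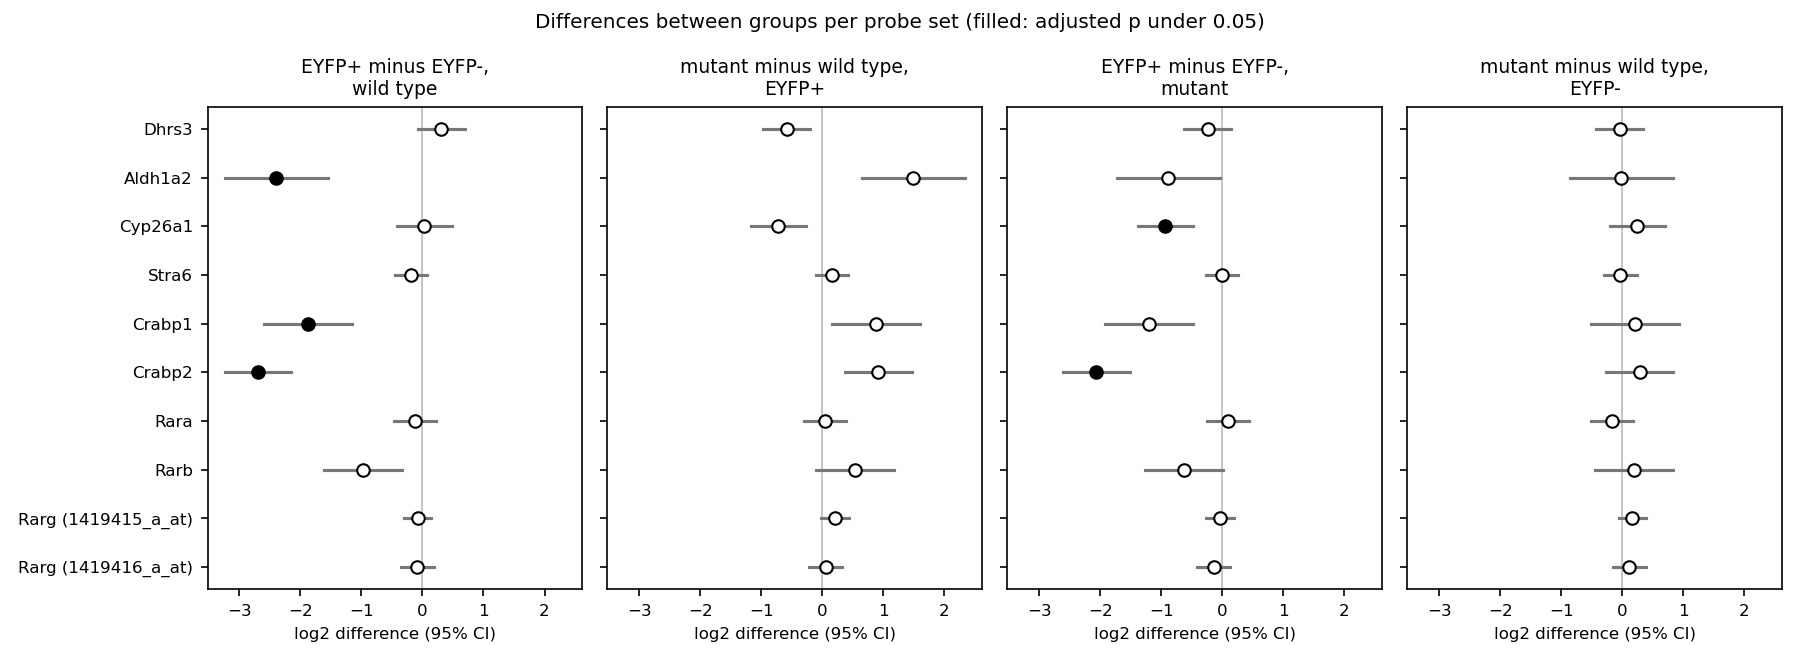
Log2 differences between groups (horizontal axes) of the 10 probe sets (rows) in 4 comparisons, as limma estimates with 95% intervals; filled points passed an adjusted p of 0.05. Filled points are Aldh1a2, Crabp1 and Crabp2 in wild types and Cyp26a1 and Crabp2 in mutants.

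Of the nuclear receptors, Rarb carried the other DR5 element. It had 9.45, 9.12 and 9.02 in mutant positive cells, against 9.67, 9.85 and 9.97 in mutant negative cells. In wild types it had 9.21, 8.66 and 8.11 in positive cells, against 10.06, 9.77 and 9.06 in negative cells. The wild-type groups overlapped by 1 array each, while within each same-numbered pair the positive array was lower, by 0.85, 1.11 and 0.95.

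Rarb had a difference of -0.97 ± 0.29 log2 in wild types, which missed the threshold (adjusted p = 0.104). With the pairs as a block it passed, at adjusted p = 0.00816 with a fixed and 0.0285 with a random block. It also passed without wild-type positive array 1 (0.0393) or wild-type negative array 3 (0.0387). In mutants the difference was -0.63 ± 0.29 (adjusted p = 0.447), and mutant positive cells differed from wild-type positive cells by 0.53 ± 0.29 (adjusted p = 0.383).

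Rara and Rarg encode the other retinoic acid receptors. The brighter Rarg probe set spanned 9.42 to 9.85 over the 12 arrays, with mutant positive cells differing from wild-type positive cells by 0.21 ± 0.10 (adjusted p = 0.331). The dimmer one spanned 5.99 to 6.51 and Rara spanned 6.15 to 6.74. Both of these lay below the array medians, at the 31.4th to 40.8th and the 34.3rd to 45.7th percentile, so low expression and a weak probe set cannot be told apart. None of the 3 probe sets passed in any comparison, and the 95% intervals of all their pairwise differences stayed within -0.51 and 0.44 log2.

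The sorted samples are bulk RNA, in which fewer cells of a type and less RNA per cell cannot be told apart. Of 8 neural ectoderm markers 5 fell in positive cells in each genotype, where 1.74% (mutant) and 2.65% (wild type) of genes, each by its brightest probe set, fell. They were not the same 5, since Zic1 passed only in wild types and Otx2 only in mutants. In wild types the calls of Sox2, Sox1, Sox3 and Zic1 were lost under 11, 6, 3 and 1 of 23 alternatives, and that of Pax6 under 0. In mutants that of Otx2 was lost under 11 of 23, and those of Sox1, Sox2, Sox3 and Pax6 under 0. The mean log2 level of the 8 ranged over arrays from 7.29 to 8.12 in mutant positive, 9.52 to 9.79 in mutant negative, 7.11 to 8.25 in wild-type positive and 9.34 to 9.67 in wild-type negative cells. The 7 paraxial mesoderm and somite markers ranged from 8.03 to 8.32 in mutant positive, 9.05 to 9.56 in mutant negative, 7.95 to 8.003 in wild-type positive and 9.09 to 9.55 in wild-type negative cells. Of these 7, 3 fell in mutant and 4 in wild-type positive cells. The 8 neural crest markers went both ways, with 3 higher and 1 lower in mutant positive cells and 2 higher and 2 lower in wild-type positive cells. Their array means were 9.27 to 9.49 in mutant positive, 9.17 to 9.31 in mutant negative, 9.14 to 9.46 in wild-type positive and 9.41 to 9.51 in wild-type negative cells. Of 8 lateral plate and heart markers 5 rose in mutant positive cells, where 2.37% of genes rose, and 1 fell in wild-type positive cells. Epithelium and surface ectoderm markers, 8 in all, had 4 lower and 1 higher in mutant positive cells, and 4 lower in wild-type positive cells. Their array means were 8.08 to 8.90 in mutant positive and 9.22 to 9.91 in mutant negative cells. In wild types they were 7.79 to 8.05 in positive and 9.69 to 9.85 in negative cells. The part of these tissues in the results on Aldh1a2, Crabp1 and Crabp2 was not tested.

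Between mutant and wild-type positive cells, where 3.16% of genes rose and 3.11% fell, the members of both the neural and the somite list went both ways. Of the neural markers 1 of 8, Zic1, rose (2.20 log2) and 0 fell (median difference -0.21), with Sox2 at -1.50 and Sox1 at -1.29. Of the somite markers 0 of 7 passed (median 0.09; limma), with Meox1 at 1.06, Tcf15 at 0.90 and Dll1 at -0.63. These 6 markers are named after their values were seen. Markers of the lateral plate and heart rose in 5 of 8 cases, with array means of 9.25 to 9.39 in mutant positive and 8.18 to 8.43 in wild-type positive cells. Endothelial markers fell in 6 of 8 cases, with means of 7.003 to 7.11 in mutant positive and 9.10 to 9.46 in wild-type positive cells. All 7 primitive erythroid markers fell, at 5.83 to 5.92 in mutant positive and 10.73 to 11.50 in wild-type positive cells. These values stand beside the Aldh1a2 difference of 1.49 between the same groups, and their part in it was not tested.

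**Figure D3:**
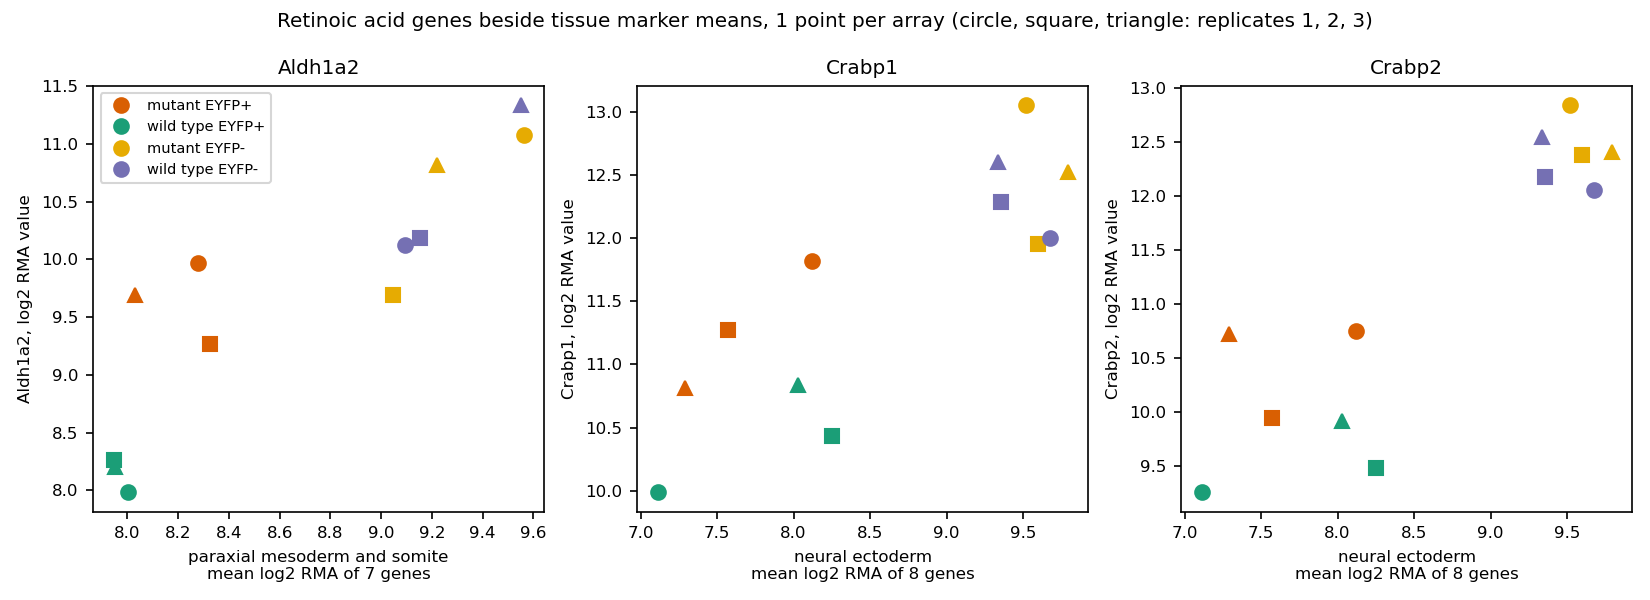
Log2 RMA value (vertical axes) against the mean log2 value of tissue markers (horizontal axes), 1 point per array, with somite markers for Aldh1a2 and neural ectoderm markers for Crabp1 and Crabp2. The 6 negative arrays lie to the right in each panel, and in the Aldh1a2 panel the somite marker means are 8.03 to 8.32 on the mutant positive arrays and 7.95 to 8.003 on the wild-type positive arrays.

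Other genes of retinoid metabolism and transport were counted by their brightest probe set, for 20 of 23 listed genes. In wild types 1 of 20 rose and 1 fell in positive cells, where 3.84% of genes rose and 2.65% fell (list median -0.00 log2, all genes -0.02). Between mutant and wild-type positive cells 1 rose and 1 fell, where 3.16% rose and 3.11% fell (0.08 and 0.01). Within mutants 0 of 20 passed with limma, where 2.37% rose and 1.74% fell. Between negative cells 0 passed (0%).

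The gene that moved both ways was Cyp26b1, a second enzyme that breaks down retinoic acid. It had 8.32, 8.62 and 8.19 in mutant positive cells, against 9.69, 9.25 and 9.60 in wild-type positive cells. In negative cells it had 8.65, 8.73 and 8.39 on mutant arrays, against 8.61, 8.58 and 8.96 on wild-type arrays. The 3 wild-type positive arrays stood above all other 9.

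Cyp26b1 rose by 0.80 ± 0.16 log2 in wild-type positive relative to wild-type negative cells (adjusted p = 0.0184) and fell by 1.14 ± 0.16 in mutant positive relative to wild-type positive cells (adjusted p = 0.00269). The second call held under all 22 alternatives, up to 0.0284. The first did not pass without array 1 (0.0709) or 3 (0.0651) of the wild-type positive cells, without wild-type negative array 1 (0.0805) or 2 (0.0829), and without both wild-type arrays numbered 1 (0.203). Its interaction was -1.01 ± 0.23 (adjusted p = 0.0739), which passed under 4 of 22 alternatives: 1 probe set per gene (0.0437), the random (0.0194) and the fixed (0.0274) block for the pairs, and without wild-type positive array 2 (0.0405). The enzyme thus differed in the wild-type sort where Cyp26a1, at 0.03 log2, did not pass; the difference between the 2 enzymes was not tested.

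Rdh10, which oxidises retinol to retinaldehyde ahead of Aldh1a2, had 10.55, 10.28 and 10.49 in mutant positive cells, against 9.90, 9.66 and 9.70 in wild-type positive cells. Its rise was 0.69 ± 0.16 (adjusted p = 0.0418), and 13 of 22 alternatives ended that call (up to 0.132), among them the omission of any 1 of the 6 positive arrays (0.0579 to 0.132), of mutant negative array 1 (0.0524) or of wild-type negative array 2 (0.0639). With the random block for the pairs it was also lost (0.0557). Rbp4, the retinol carrier of the blood, fell by 2.48 ± 0.61 in wild-type positive relative to wild-type negative cells (adjusted p = 0.044). That call was lost without any 1 of the 6 wild-type arrays (0.0718 to 0.171) or of the 3 mutant negative arrays (0.0609 to 0.062). Rbp4 is also a yolk sac endoderm marker, and the 8 markers of that tissue had array means of 6.23 to 6.47 in wild-type positive and 8.03 to 8.66 in wild-type negative cells. Both Rbp4 and Ttr are among these 8, so the means are in part their own values. Of the 8 only 1, Rbp4 itself, passed in wild types, where 2.65% of genes fell. Ttr, which carries Rbp4 in the blood, differed by -3.68 ± 1.37 in mutants (adjusted p = 0.277) and -5.30 ± 1.37 in wild types (adjusted p = 0.0574), and is named after its values were seen. Without mutant positive array 1 the mutant difference was -5.86 (adjusted p = 0.000243). The wild-type difference passed under 9 of 23 alternatives, at 2.69e-05 to 0.0482, among them the omission of any 1 of the 3 mutant positive arrays. On mutant positive array 1, which had high Afp, Rbp4 was 10.76, against 8.12 and 7.96 on arrays 2 and 3.

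Of receptor partners and cofactors, such as the RXR proteins and the nuclear receptor coactivators, 10 of 12 listed genes were measured. None of the 10 passed in any of the 5 comparisons with limma. Of all genes 3.84% rose and 2.65% fell in wild types, 2.37% and 1.74% within mutants, and 3.16% and 3.11% between positive cells. Between negative cells 0% passed, and for the interaction 1.86%, so 0 of 10 is near these shares. The median of the 10 in wild-type positive against negative cells was -0.24 log2 (all genes -0.02). Rxra, a partner of all 3 retinoic acid receptors, had 9.24 to 9.50 in mutant positive and 9.31 to 9.42 in wild-type positive cells, with 9.22 to 9.35 in mutant negative and 9.30 to 9.38 in wild-type negative cells.

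**Figure D4:**
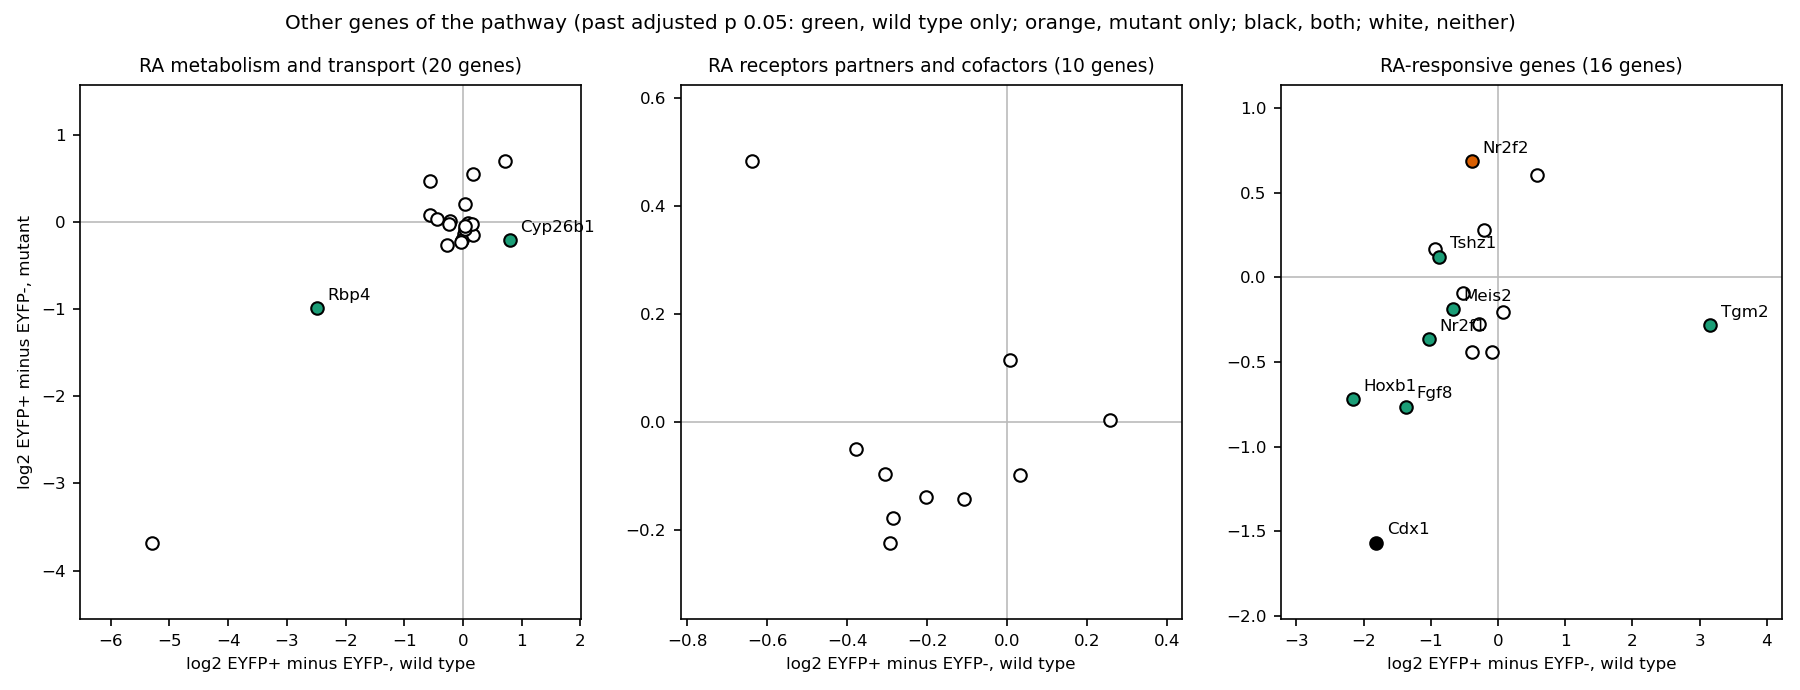
Log2 difference of positive minus negative cells in mutants (vertical axes) against the same difference in wild types (horizontal axes) for 3 lists of pathway genes, 1 point per gene at its brightest probe set. Filled points passed an adjusted p of 0.05, 2 genes in mutants (Cdx1 and Nr2f2) and 9 in wild types; the open point at -3.68 in mutants and -5.30 in wild types is Ttr.

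Genes known from other work to respond to retinoic acid in embryos were measured for 16 of 20 listed. The list does not separate induced from repressed genes, so its counts give no level of retinoic acid response. In wild-type positive cells 6 of 16 fell and 1 rose, where 2.65% and 3.84% of genes did (list median -0.46 log2, all genes -0.02). Between mutant and wild-type positive cells 1 of 16 rose and 1 fell, where 3.16% and 3.11% of genes did (median 0.33, all genes 0.01). Within mutants 1 of 16 rose and 1 fell, where 2.37% and 1.74% did (median -0.24, all genes -0.03). A single gene of 16 is near these shares. Between negative cells 0 passed with limma (0%). Several members, such as Hoxb1, Nr2f1 and Cdx1, also mark hindbrain or posterior trunk. The neural and somite marker means given above were lower on the positive side of the sort in both genotypes. Between the positive cells of the 2 genotypes the median marker difference was -0.21 log2 for the neural and 0.09 for the somite list. The part of these tissues in the counts of this list was not tested.

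Hoxb1, a hindbrain patterning gene with known retinoic acid elements, had 10.73, 11.30 and 10.89 in mutant positive cells, against 9.97, 9.89 and 8.47 in wild-type positive cells. In negative cells it had 11.22, 11.75 and 12.11 on mutant arrays, against 11.65, 11.68 and 11.50 on wild-type arrays. The wild-type positive arrays were the 3 lowest of 12, as they were for Aldh1a2. It fell by 2.16 ± 0.36 in wild-type positive relative to wild-type negative cells (adjusted p = 0.00529), under all 23 alternatives. It rose by 1.53 ± 0.36 in mutant relative to wild-type positive cells (adjusted p = 0.0376). That second call was lost under 9 of 22 alternatives (up to 0.143), including the omission of any 1 of the 3 mutant positive arrays (0.0685 to 0.117), of mutant negative array 2 (0.0501) and of any 1 of the 3 wild-type negative arrays (0.0583 to 0.0609).

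Cdx1, a posterior patterning factor, fell in positive cells of both genotypes, by 1.57 ± 0.31 in mutants (adjusted p = 0.0244) and by 1.81 ± 0.31 in wild types (adjusted p = 0.00688). The mutant call ended with the omission of positive array 1 or 3 or of any 1 of the 3 negative arrays (0.0525 to 0.0802). Nr2f1, an orphan nuclear receptor, fell by 1.03 ± 0.19 in wild-type positive cells (adjusted p = 0.0109; 0.052 without wild-type negative array 1). The other genes that fell there were Fgf8 (-1.36), Tshz1 (-0.88) and Meis2 (-0.68), which are named because the count is small and after their values were seen. Fgf8 did not pass once wild-type positive array 1, or negative array 2 or 3, was omitted (0.0631 to 0.0738). Tshz1 did not pass once wild-type positive array 2 or 3, or negative array 1 or 3, was omitted (0.0505 to 0.0755). Meis2 did not pass once any of the same 4 arrays, wild-type negative array 2, or array 2 of the positive or 1 of the negative mutant cells was omitted (0.0517 to 0.135).

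Tgm2, a transglutaminase that retinoic acid induces in several cell types, went the other way. It had 8.21, 7.80 and 7.94 in mutant positive cells, against 12.20, 11.59 and 12.10 in wild-type positive cells, and 7.86 to 8.66 in mutant negative and 8.56 to 9.10 in wild-type negative cells. It rose by 3.16 ± 0.23 in wild-type positive relative to wild-type negative cells (adjusted p = 1.26e-05) and fell by 3.98 ± 0.23 in mutant relative to wild-type positive cells (adjusted p = 2.63e-06), and 4 of its 6 probe sets passed in each. The endothelial and erythroid marker means moved in the same directions in both comparisons, and their part in the Tgm2 differences was not tested. Within mutants Nr2f2, an orphan receptor of mesoderm and veins, rose by 0.69 ± 0.16 (adjusted p = 0.0499). This call was lost under 14 of 23 alternatives (up to 0.185), among them the omission of mutant positive array 1 or 2, any mutant or wild-type negative array, or wild-type positive array 2 or 3, and 1 of its 6 probe sets passed. The interaction passed for 2 of the 16 genes, Tgm2 (-3.44) and Nr2f2 (1.08), where 1.86% of genes passed, and for 0 of the 20 metabolism and transport genes.

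The 3 genes with called falls in wild types had similar profiles over the 12 arrays. Pearson's r was 0.93 between Aldh1a2 and Crabp1, 0.91 between Aldh1a2 and Crabp2, and 0.94 between the 2 binding proteins. The other 33 of the 36 pairs lay between -0.35 (Dhrs3 and Rarb) and 0.70 (Crabp2 and Rarb), with Aldh1a2 at 0.61 to Rarb, 0.60 to Stra6, 0.13 to Cyp26a1 and -0.28 to Dhrs3. The arrays fall into 4 groups that set much of these values, so they are descriptions. Over 14136 genes with a mean above the 25th percentile and no clone-type name, the profiles most like Aldh1a2 were Mdm1 (0.95), Llgl1 (0.94) and Spsb4 (0.94). For Crabp1 they were Ypel1 (0.97), Dnph1 (0.96) and Cenpv (0.95). For Crabp2 they were the neural factor Pax6 (0.97), Ypel1 (0.97) and Slco5a1 (0.96). For Cyp26a1 they were Gabra4 (0.93), Ttc32 (0.90) and Npdc1 (0.89), and for Rarb Zfp811 (0.93), Garem1 (0.92) and Notch3 (0.90). Dhrs3 came closest to Smap2 (0.91), Trmt61b (0.89) and Clptm1l (0.87), and Stra6 to Tbx18 (0.86), Gli1 (0.84) and Foxd1 (0.84). Rara came closest to Eif2b5 (0.90), Thoc7 (0.89) and Commd8 (0.89), and Rarg to Mcm8 (0.92), Abhd12 (0.91) and Parp2 (0.91). All these are the highest values of 14136 genes over only 12 arrays. Such a search can give high values by itself, and none was tested.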

How the data were processed

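The authors deposited log2 expression values and, per the submitters' processing notes, made them with RMA, whose version and settings are not stated. Total RNA was taken with Trizol, amplified and biotin-labelled, per the labels' protocols. Of 45101 probe sets 64 array controls were left out. The platform annotation gave 1 symbol to 34945 probe sets, several to 932 and did not list 9160. A gene outside the 9 stands for its brightest probe set. Levels of different probe sets were not compared.

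The limma package 3.58.1 (R 4.3.3), with lmFit, contrasts.fit and eBayes, tested differences over 45037 probe sets in 1 model of 4 groups, with 8 residual degrees of freedom and Benjamini-Hochberg adjustment within each of 5 contrasts. All tests were two-sided. On simulated data with independent noise on each array, the mean size of the estimates was checked to lie close to the change put in. The simulated arrays had no pairs, so the check gives no error rate for these data. Members and lists were chosen with earlier results of these data known. Genes of the lists are named where they passed, up to 4 per list and comparison by smallest p; others are identified as such.

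Same-numbered positive and negative arrays of a genotype deviated together from their group means, at r = 0.40 to 0.55 across genes in mutants and 0.10 to 0.20 in wild types, while same-numbered arrays of different genotypes gave -0.24 to 0.00. The numbers were read as pairing them, from the data and not the labels. Because the labels state no pairing, the main fit had no block for these pairs, and blocks were run only as alternatives. Alternatives were 1 probe set per gene, a filter on dim probe sets, quantile normalization, median centring, an intensity trend, array weights, only the groups compared, 3 forms of replicate block, each array left out, and both wild-type arrays numbered 1 left out.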

Additional observations from a re-analysis of the deposited data

Results flagged for a closer look

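No result of the 9 genes met a rule for closer inspection: the interaction test passed for none of their 10 probe sets, and groups of 3 arrays are too small for a test of single outlying arrays. Among the other genes of the pathway the sort difference depended on genotype for Tgm2 and Nr2f2. For Tgm2 the sort difference of the mutants less the sort difference of the wild types was -3.44 ± 0.32 log2 (limma, adjusted p = 0.000252), and it passed under all 22 alternatives. For Nr2f2 it was 1.08 ± 0.23 (adjusted p = 0.0487), with a positive-negative difference of 0.69 in mutants and -0.39 in wild types. The Nr2f2 call was lost under 14 of 22 alternatives, at adjusted p up to 0.129.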

How the results depend on the processing

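Of 50 results, 10 probe sets in 5 comparisons, 43 kept their side of the threshold under every alternative run, and 7 did not, as given with each gene; no called value changed sign. Between mutant and wild-type positive cells, probe sets that passed with higher values numbered 0 in the main fit. They numbered 2 with 1 probe set per gene, and 1 each with the filter on dim probe sets, with only the groups compared, with the random replicate block and with the number as a replicate block shared by all 4 groups. Leaving out 1 array gave 0 to 1 that were higher and 0 to 1 that were lower. Within mutants the 2 that were lower numbered 1 with only the groups compared and 1 without both wild-type arrays numbered 1, and 1 to 2 when 1 array was left out. In wild types the 3 that were lower numbered 3 to 4 when 1 array was left out. The blocks for pairs changed the calls of Rarb, Crabp1 and Aldh1a2 given above and no other call of the 9 genes. Over all probe sets the called number moved as follows. In wild types it was 2018, and 3252 with the random and 3001 with the fixed block, 1272 to 2013 with 1 array left out and 962 without both wild-type arrays numbered 1. Within mutants it was 1181, and 1993 and 1848 with these blocks but 565 with only the groups compared and 699 to 1191 with 1 array left out. Between positive cells it was 1989, and 960 with only the groups compared, 1304 to 2095 with 1 array left out and 1303 without both wild-type arrays numbered 1. For the interaction it was 573, and 1060 with the random and 878 with the fixed block. The cause was not tested. Signal over background was not given, so differences of dim probe sets have an uncertain size.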
